A study of Homo sapiens with 4 samples.

Results

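Long noncoding RNA genes named LINC with a number, and genes named as hosts of a microRNA (MIR, the microRNA's name, HG), were examined in H1792, a long-established line of human lung cancer cells, given the degrader ACBI1 or its solvent DMSO. A gene was taken in by its symbol and by a mean of at least 1 CPM over the 4 libraries, where CPM is counts per 1000000 counts assigned to genes. This left 190 genes, 164 LINC genes and 26 microRNA hosts, of 2338 gene rows with such a symbol and of 61228 gene rows in all. The genes were thus chosen by their measured mean level, and their being expressed is no finding. The difference between treatments had no part in the choice, but a gene silent in 1 group could enter through the other: 31 of the 190 were under 1 CPM on average in 1 group, 13 of them with DMSO and 18 with ACBI1. At the lower limit stood LINC00461 at 1.02 CPM, MIR29B2CHG at 1.03 and LINC01686 at 1.03 just inside, and LINC02984 at 0.985, LINC01355 at 0.977 and LINC02328 at 0.976 just outside.

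ACBI1 is a PROTAC, a molecule that ties a target protein to the VHL ubiquitin ligase. It acts on SMARCA2 and SMARCA4, which drive the SWI/SNF nucleosome remodellers with ATP, and on PBRM1, found in a form of that complex. The control group was H1792 treated with DMSO for 96 h (2 libraries), and the treated group was H1792 with ACBI1 for 96 h (2 libraries), at a dose that the labels write as 1 mM and that the counts cannot check. Both groups carry the genotype label WT and were grown in the same medium, the labels name no further treatment, and nothing states that libraries of a group came from separate cultures, so p-values measure the spread between these libraries, which may be technical.

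A microRNA host gene is transcribed as a long primary RNA. The nuclease complex of DROSHA and DGCR8 cuts a hairpin out of it, DICER1 trims the hairpin to a short duplex, and one strand enters an Argonaute protein, where bases 2 to 8, the seed, pair with target messenger RNAs. The reads counted here come from the long host RNA, so they do not measure the mature microRNA. LINC genes lie between protein-coding genes by naming convention. Of the 161 LINC genes here with a RefSeq position, 11 nevertheless overlap the body of a protein-coding gene. Some act on neighbouring genes or as scaffolds, and many have no settled function.

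The 7 hosts that passed the test hold 17 mature microRNAs in RefSeq. One for each host is given first, that of the arm by which the host is best known or the microRNA in its name, and other arms and the further microRNAs miR-2682 (MIR137HG), miR-3142 (MIR3142HG) and miR-5583 (MIR924HG) are not printed. Sequences run 5′ to 3′ from RefSeq (GRCh38.p14) and the seed is in capitals. The first 4 lie in hosts that fell with ACBI1, and the other 3 in hosts that rose.
hsa-miR-22-3p: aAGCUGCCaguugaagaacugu
hsa-miR-146a-5p: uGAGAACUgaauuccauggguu
hsa-miR-210-3p: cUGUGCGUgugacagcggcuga
hsa-miR-503-5p: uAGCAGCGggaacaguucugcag
hsa-miR-137-3p: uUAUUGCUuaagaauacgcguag
hsa-miR-924: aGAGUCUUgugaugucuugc
hsa-miR-600: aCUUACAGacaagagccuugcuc
No 2 of these 7 share a seed. In all, the 26 hosts hold 81 mature microRNAs, and the seed found in most hosts was that of let-7, which is treated further on.

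Gene counts summed to between 64281850 and 86010100 per library, and 3 counts, the limit that a count of 0 allows, were 0.0349 to 0.0467 CPM. All 190 genes had counts in every library. They held 0.177% and 0.181% of gene counts with DMSO and 0.193% and 0.171% with ACBI1. Transcripts of the degrader's targets did not pass the test, with log2 changes of 0.70 for SMARCA4, -0.40 for SMARCA2 and 0.10 for PBRM1 (edgeR adjusted p 0.0583, 0.163 and 0.734). On TMM-scaled library sizes, the 5 epithelial markers summed to 304 and 355 CPM with DMSO and to 144 and 141 with ACBI1. The keratins KRT8, KRT18 and KRT19 were all called lower, with log2 changes of -1.42, -1.14 and -2.51 (adjusted p 0.00753, 0.0136 and 0.0171). KRT8 and KRT18 made up nearly all of the sum, KRT19 was at 3.44 and 5.00 CPM with DMSO, and EPCAM was at 5.38 and 2.78 with DMSO and 15.6 and 4.84 with ACBI1 (log2 change 1.32, adjusted p 0.179). The epithelial cadherin CDH1 was at or under 0.222 CPM, and the lung epithelial gene NKX2-1 was at 0 counts in every library. The part of this shift in the markers in the changes described further on was not tested.

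A log2 change is ACBI1 minus DMSO from edgeR's quasi-likelihood fit on 19159 genes, and a gene was called higher or lower at a Benjamini-Hochberg adjusted p under 0.05. CPM values from here on use TMM-scaled library sizes. Of the 190 genes, 11 rose and 24 fell, or 18.4%. Without ACBI1 replicate 1 these counts were 4 and 15, and without ACBI1 replicate 2 they were 7 and 16. Among all genes tested, 17.4% were called (6.75% higher, 10.6% lower), and among those at 1 CPM or more, 20.0% (8.27% higher, 11.8% lower). The share of calls was thus close to that of genes in general, and the median log2 change of 0.01 was close to the 0.01 of all genes. LINC genes had 8 rises and 20 falls of 164 (17.1%), with a median of -0.01. Hosts had 3 rises and 4 falls of 26 (26.9%), with a median of 0.32.

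The size of the changes was wide. Called genes that fell had a median log2 change of -2.32, those that rose 1.61, and 12 reached a size of 3, 10 of them falls. Of the 35 called genes, 19 were among the 31 under 1 CPM in 1 group, 5 of them higher and 14 lower. Among all genes at 1 CPM or more, leaving out those under it in 1 group lowered the share called from 20.0% to 18.5%. The share lower went from 11.8% to 10.4%, and the share higher from 8.27% to 8.07%. Frequent calls in genes under 1 CPM in 1 group, and their lean to falls, were thus seen among all genes too. All 12 genes of size 3 or more were under 1 CPM in 1 group. Such genes entered through the group where they were high. The rule itself thus favours large changes, and these sizes are no finding about the set. The 159 genes at 1 CPM or more in both groups had 16 calls (10.1%, against 18.5% of all such genes), 6 higher and 10 lower, where all such genes had 8.07% higher and 10.4% lower. Groups did not overlap in 56.6% of the 159 genes, against 65.3% of all such genes. The 159 genes had a median log2 size of 0.44 and a median SE of 0.33. All such genes had 0.39 and 0.21. The lower share of calls thus did not go with smaller changes. With any 1 library removed, between 19 and 29 of the 35 kept their call, and 16 kept it every time, 14 of them falls. In bulk RNA, fewer cells that make a transcript and less of it per cell cannot be told apart.

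**Figure D1:**
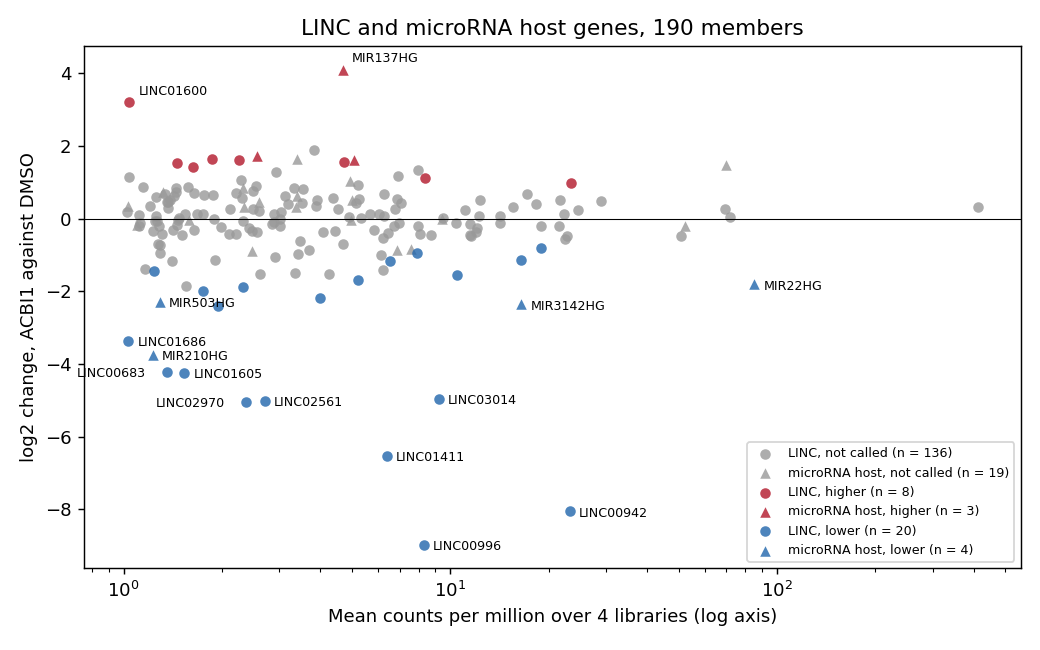
Log2 change with ACBI1 against mean CPM for the 190 genes, LINC genes and microRNA hosts marked apart, with genes called higher and lower in colour. The 24 falls reach -8.97 (LINC00996) and the 11 rises reach 4.10 (MIR137HG), while most genes lie near 0 at every level.

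MicroRNA hosts that fell carry miR-22, miR-146a, miR-210 and miR-503. MIR22HG (chr17:1711504-1716210, minus strand; build GRCh38) was the most abundant of the 4 in reads. It was at 124 and 145 CPM with DMSO and at 38.3 and 38.8 with ACBI1, a log2 change of -1.80 (SE 0.16, edgeR adjusted p 0.00321). Both ACBI1 libraries lay far under both DMSO libraries, and the replicates were close within each group. The nearest coding gene, WDR81, starts 313 bases away and had a log2 change of -0.06 (adjusted p 0.894).

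MIR3142HG (chr5:160468251-160487426, plus strand) is the host of miR-146a, a microRNA induced by NF-kB that represses the signalling proteins IRAK1 and TRAF6. It was at 28.4 and 28.0 CPM with DMSO and at 7.63 and 3.34 with ACBI1, a log2 change of -2.36 (SE 0.39, edgeR adjusted p 0.0146). The groups did not overlap, though the ACBI1 libraries differed from each other, and without ACBI1 replicate 1 the change was -3.07. The NF-kB subunit genes had log2 changes of -0.49 for NFKB1 and 0.50 for RELA (adjusted p 0.208 and 0.111), so neither passed.

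The MIR3142HG promoter, 250 bases before the start and 50 after it (chr5:160468001-160468300, plus strand, GRCh38.p14, from RefSeq), is printed because it holds an NF-kB motif match, in capitals, at -120 to -111 from the start.
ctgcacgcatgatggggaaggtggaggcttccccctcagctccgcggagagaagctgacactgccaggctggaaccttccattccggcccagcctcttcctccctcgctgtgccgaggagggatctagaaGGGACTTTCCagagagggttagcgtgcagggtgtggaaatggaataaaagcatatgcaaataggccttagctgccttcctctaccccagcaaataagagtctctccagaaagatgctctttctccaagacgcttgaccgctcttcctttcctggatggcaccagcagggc
Such a match is a description of the letters, not of binding. It occurred in 10.8% of 27305 RefSeq promoters of this length on either strand.

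MIR210HG (chr11:565657-568457, minus strand) hosts miR-210, the microRNA best known for its induction by the hypoxia factor HIF1A. It was at 1.89 and 2.79 CPM with DMSO and at 0.190 and 0.153 with ACBI1, a log2 change of -3.75 (SE 0.44, edgeR adjusted p 0.00580). HIF1A itself was at 325 and 489 CPM with DMSO and at 103 and 101 with ACBI1, a log2 change of -1.99 (adjusted p 0.00636). Both genes were lower in both ACBI1 libraries. Whether these falls are linked was not tested.

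MIR503HG (chrX:134543377-134546630, minus strand) lies with miR-503 and its neighbour miR-424, which act on cell cycle genes. It was at 3.02 and 1.38 CPM with DMSO and at 0.458 and 0.442 with ACBI1, a log2 change of -2.28 (SE 0.49, edgeR adjusted p 0.0286). The DMSO libraries differed most here, and the call was lost without DMSO replicate 1 (log2 change -1.60) and without either ACBI1 library. The other 3 falling hosts kept their call whichever library was left out.

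Of the hosts that rose, MIR137HG (chr1:97988000-98049693, minus strand) changed most. Its microRNA, miR-137, is best known from neurons. MIR137HG was at 0.479 and 0.528 CPM with DMSO and at 7.85 and 9.44 with ACBI1, or 77 counts over both DMSO libraries against 1322 over both ACBI1 libraries. The log2 change was 4.10 (SE 0.32, edgeR adjusted p 0.00231), the largest rise among the 190 genes, and it passed whichever library was left out. In GENCODE release 29, exons of other genes cover 9.84% of it. Its nearest coding gene, DPYD, 66.9 kb away, had a log2 change of 0.28 (adjusted p 0.389).

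MIR924HG (chr18:39206924-39751995, minus strand), the host of the little-studied miR-924, was at 2.69 and 2.24 CPM with DMSO and at 7.65 and 7.44 with ACBI1. The log2 change was 1.61 (SE 0.28, edgeR adjusted p 0.0155), and it was not called without ACBI1 replicate 1. MIR600HG (chr9:123109494-123115477, minus strand) was at 1.14 and 1.18 CPM with DMSO and at 2.67 and 5.08 with ACBI1, a log2 change of 1.73 (SE 0.41, adjusted p 0.0373), which was not called without ACBI1 replicate 2. It lies inside the body of the coding gene STRBP, an RNA-binding protein gene that also rose (log2 change 1.47, adjusted p 0.00412). Both are annotated on the same strand, with MIR600HG inside an intron of STRBP in GENCODE release 29, so reads of unspliced STRBP RNA cannot be told from those of MIR600HG under any strand setting. Which of them the reads come from was not tested.

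The let-7 seed, GAGGUAG, was the one shared by most hosts: 7 mature microRNAs in 6 hosts carry it. Let-7 microRNAs repress growth and stem cell genes, and LIN28A and LIN28B bind their precursors and block maturation. Their sequences are shown together because they differ outside the seed.
hsa-let-7a-5p (MIR100HG, MIRLET7A1HG and MIRLET7BHG): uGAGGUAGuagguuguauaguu
hsa-let-7b-5p (MIRLET7BHG): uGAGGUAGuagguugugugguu
hsa-let-7d-5p (MIRLET7A1HG): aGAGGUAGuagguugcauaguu
hsa-let-7f-5p (MIRLET7A1HG): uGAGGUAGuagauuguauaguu
hsa-let-7i-5p (MIRLET7IHG): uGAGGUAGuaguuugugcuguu
hsa-miR-4458 (MIR4458HG): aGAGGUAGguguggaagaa
hsa-miR-4500 (MIR4500HG): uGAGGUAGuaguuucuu
None of the 6 hosts passed the test, and 1, MIR100HG, did at an unadjusted p under 0.05. That miss depended on the setting. Leaving aside a fit blocked by replicate number, 7 other fits used all 4 libraries. MIR100HG was called in 5 of these 7 (adjusted p from 1.72e-10 to 0.0678). MIRLET7IHG was called in 1 of the 7, when every gene with a count was kept (adjusted p 0.0492). The blocked fit called MIR100HG, MIRLET7IHG and MIR4500HG (edgeR adjusted p 0.000581, 0.00585 and 0.0323), though no label says that replicate numbers are batches. Log2 changes were positive for 4 and negative for 2, and MIR4458HG changed sign under scaling by the upper quartile or by library size only, which makes 5 positive.

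MIR100HG, the host of miR-100, let-7a-2 and miR-125b-1, came nearest to a call. It was at 37.3 and 35.6 CPM with DMSO and at 142 and 59.8 with ACBI1, a log2 change of 1.47 (SE 0.39), and its edgeR adjusted p of 0.05001 was just over the threshold. The ACBI1 libraries were both higher but far apart, and leaving out ACBI1 replicate 1 gave 0.72, leaving out ACBI1 replicate 2 gave 1.95. The row of the let-7a-2 hairpin gene within it, MIRLET7A2, had 5 and 7 counts with DMSO and 67 and 61 with ACBI1, a log2 change of 3.39 (SE 0.50, adjusted p 0.0104). These are reads of a long-RNA library over the hairpin's position, not mature let-7.

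The other let-7 hosts changed by less. MIRLET7IHG was at 10.7 and 7.16 CPM with DMSO and at 7.03 and 2.85 with ACBI1 (log2 change -0.85, adjusted p 0.253). MIRLET7BHG had a log2 change of 0.45, MIRLET7A1HG of 0.50 and MIR4500HG of 0.83 (adjusted p 0.365, 0.237 and 0.182). MIR4458HG was at 9.42 and 9.44 CPM with DMSO and at 8.56 and 10.2 with ACBI1 (log2 change -0.01, adjusted p 0.988), so its groups overlapped. Exons of other genes cover 78.7% of MIRLET7A1HG and 19.9% of MIR4500HG, so their counts are uncertain.

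Among 22 tested genes of microRNA processing and silencing, 2 rose (9.09%, against 6.75% of all genes tested) and 0 fell (against 10.6%), with a median log2 change of 0.31. LIN28B, the blocker of let-7 maturation, was at 0.135 and 0.0695 CPM with DMSO and at 1.36 and 0.915 with ACBI1. Its counts were 16 in the DMSO libraries and 182 in the ACBI1 libraries, with a log2 change of 3.45 (SE 0.53, edgeR adjusted p 0.0113). SRRT, which works between the cap-binding complex and DROSHA, rose by a log2 of 0.63 (adjusted p 0.0478) and was not called when any 1 library was left out, unlike LIN28B. The core enzymes did not pass, with 0.37 for DROSHA, 0.52 for its partner DGCR8, 0.41 for DICER1 and 0.61 for AGO2 (adjusted p 0.187, 0.186, 0.148 and 0.121). An unadjusted p under 0.05 was found for 6 of the 22, against 6490 of all 19159 genes tested.

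Of the 19 hosts not called, 11 had overlapping groups. Over all 26 hosts, called or not, groups did not overlap in 57.7%. This compares with 63.2% of all genes tested and 66.5% of those at 1 CPM or more. MIR17HG, the host of the miR-17-92 cluster driven by MYC and E2F factors, was at 2.63 and 0.598 CPM with DMSO and at 7.61 and 2.52 with ACBI1 (log2 change 1.65, SE 0.79, adjusted p 0.203). MIR155HG, the host of the immune microRNA miR-155, was at 4.80 and 1.71 CPM with DMSO and at 2.88 and 0.595 with ACBI1 (log2 change -0.90, SE 0.80, adjusted p 0.478). Replicates of a group differed by 1.49 to 2.28 on the log2 scale in both genes, and their groups overlapped. Replicate 1 was the higher in both groups for both genes. Within each replicate number, MIR17HG was higher and MIR155HG lower with ACBI1. With that number as a block, both were called (edgeR adjusted p 0.000377 and 0.0146). The labels do not say that the number marks a batch. E2F1 rose (log2 change 1.93, adjusted p 0.00485), while MYC had a log2 change of 0.68 and did not pass (adjusted p 0.104).

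MIR1915HG was at 1.29 and 5.10 CPM with DMSO and at 4.24 and 8.94 with ACBI1 (log2 change 1.04, adjusted p 0.330). MIR193BHG, with miR-193b and miR-365a, was at a log2 change of -0.84 (adjusted p 0.170), and MIR222HG, with miR-221 and miR-222, at 0.63 (adjusted p 0.213). MIR23AHG, the host of miR-23a, miR-27a and miR-24-2, was at 49.6 and 63.0 CPM with DMSO and at 31.9 and 65.2 with ACBI1 (log2 change -0.21, adjusted p 0.707). The DMSO levels of MIR23AHG lay between those of the ACBI1 libraries. MIR31HG was at 3.94 and 6.09 CPM with DMSO and within that range with ACBI1 (log2 change -0.04, adjusted p 0.94996).

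The remaining hosts were MIR4453HG at a log2 change of 0.73, MIR29B2CHG at 0.34, MIR762HG at 0.33, MIR3936HG at 0.32, MIR181A1HG at -0.03 and MIR3171HG at -0.18 (adjusted p 0.192, 0.710, 0.522, 0.630, 0.963 and 0.816). MIR29B2CHG carries miR-29b-2 and miR-29c, which act on collagen messages, and MIR181A1HG carries miR-181a-1 and miR-181b-1. Exons of other genes cover 59.6% of MIR762HG and 40.7% of MIR31HG, so their counts are uncertain. Of 47 hairpin genes with a row inside the hosts, 31 had 0 counts in every library. MIRLET7A2 was the one called of the 5 tested, and MIR221, MIR222, MIR31 and MIR762 were not.

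**Figure D2:**
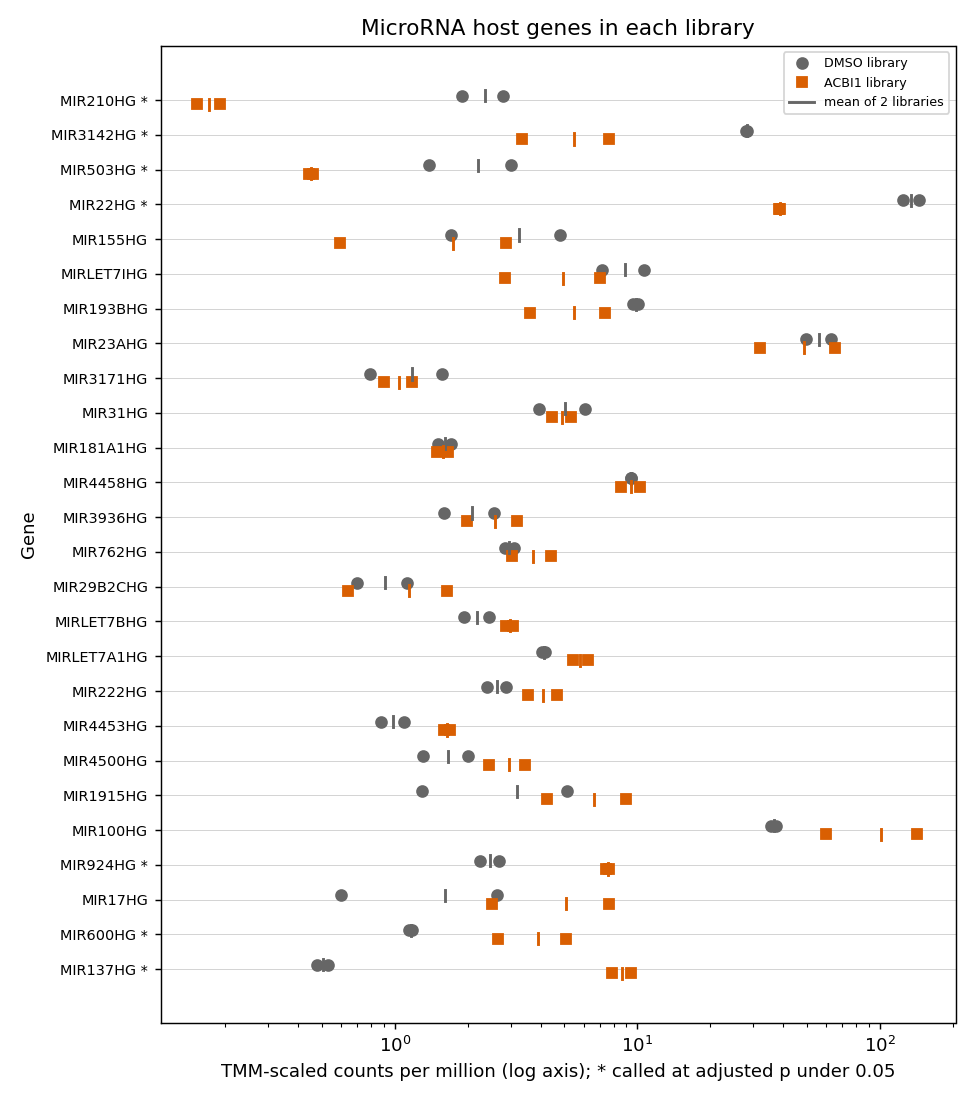
CPM of each of the 26 microRNA hosts in the 2 DMSO and 2 ACBI1 libraries, 1 point per library on a log axis with a bar at the mean of each group, and called hosts starred. MIR22HG, MIR3142HG, MIR210HG and MIR503HG lie lower in both ACBI1 libraries, MIR137HG, MIR924HG and MIR600HG higher, and MIR17HG and MIR155HG are spread widely between replicates.

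Among LINC genes, several fell from clear expression to near the limit of detection. LINC00996 (chr7:150433654-150448140) was at 6.45 and 27.4 CPM with DMSO and at 0.0335 and 0.0305 with ACBI1, at or under the limit of 3 counts. Its counts were 2495 in the DMSO libraries and 5 in the ACBI1 libraries, which per library size gave a ratio of 474 (95% exact interval 203 to 1461, counting error only), and an edgeR adjusted p of 0.00527. The DMSO libraries lay far apart, and the fitted log2 change of -8.97 (SE 1.00) moved to -9.66 without DMSO replicate 1 and to -7.58 without DMSO replicate 2.

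Some markers of other cell types moved with this gene. The 3 endothelial markers summed to 12.6 and 48.5 CPM in the DMSO libraries and to 0.0112 and 0.0458 with ACBI1. Nearly all of it was PECAM1 (12.2 and 48.1 CPM with DMSO), while CDH5 stayed at or under 0.0556 CPM and VWF at or under 0.320. The 4 fibroblast markers summed to 352 and 783 CPM with DMSO and to 71.6 and 223 with ACBI1. Most of this sum was COL1A1, at 324 and 693 CPM with DMSO and at 62.3 and 210 with ACBI1. COL1A1 and PDGFRB were lower but not called (edgeR adjusted p 0.0860 and 0.0967). PDGFRA and LUM were called lower (adjusted p 0.0134 and 0.0319). PDGFRA was at 10.5 and 37.9 CPM with DMSO and at 0.614 and 1.42 with ACBI1. Like LINC00996, PECAM1 and PDGFRA were higher in DMSO replicate 2 than in DMSO replicate 1. Of the 4 blood markers, CD3E was at 0 counts and the list summed to at most 0.723 CPM. All 4 libraries are labelled H1792, and which cells made these transcripts was not tested.

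LINC00942 (chr12:1500491-1504424) was at 36.5 and 58.5 CPM with DMSO and at 0.112 and 0.259 with ACBI1. Its log2 change was -8.05 (SE 0.47, edgeR adjusted p 0.00141), and it was -8.72 without ACBI1 replicate 2. The nearest coding gene ERC1, 4.56 kb away, had a log2 change of 0.37 (adjusted p 0.218). A large fall of LINC00942 thus stood beside a coding gene that did not pass the test.

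LINC01411 (chr5:174336354-174527139) was at 11.3 and 14.7 CPM with DMSO and at 0.179 and 0.0915 with ACBI1 (log2 change -6.53, SE 0.43, edgeR adjusted p 0.00182). Its promoter (chr5:174336104-174336403, plus strand, GRCh38.p14, from RefSeq) is printed because it was the only one of 19 promoters of falling genes with the AP-1 motif TGANTCA, in capitals, at -174 to -168 from the start.
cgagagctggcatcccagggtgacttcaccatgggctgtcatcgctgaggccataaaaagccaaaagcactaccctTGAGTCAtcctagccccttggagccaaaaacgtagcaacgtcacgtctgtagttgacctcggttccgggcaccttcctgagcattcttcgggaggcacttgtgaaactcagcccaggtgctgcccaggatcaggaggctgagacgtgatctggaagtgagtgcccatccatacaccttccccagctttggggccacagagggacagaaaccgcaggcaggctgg
TGANTCA, read on both strands, was in 5.26% of those 19 promoters, in 0 of 6 of genes that rose, in 11.0% of 109 of genes not called, and in 7.76% of all RefSeq promoters. The NF-kB motif was in 3 of the 19 (MIR3142HG, LINC00683 and LINC01686; 15.8%), in 1 of the 6 (LINC00265), in 6.42% of the 109 and in 10.8% of all. The E-box CACGTG was in 1 of the 19, 0 of the 6, 3.67% of the 109 and 7.44% of all. TATAAA was in 0 of the 19, 0 of the 6, 13.8% of the 109 and 11.95% of all. Matches of different motifs may overlap, and a window without a match says nothing of the factor.

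LINC03014 (chr7:149718-155465, plus strand) was at 17.1 and 19.7 CPM with DMSO and at 0.681 and 0.488 with ACBI1 (log2 change -4.96, SE 0.30, edgeR adjusted p 0.00141). LINC03015, 280 bases away on the minus strand, was at 20.7 and 25.1 CPM with DMSO and at 9.70 and 11.2 with ACBI1 (log2 change -1.13, SE 0.21, adjusted p 0.0189). Both genes of this head-to-head pair fell, by different amounts. The difference between the 2 falls was not tested, and LINC03015 was not called without either ACBI1 library.

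LINC02970 was at 4.92 and 4.55 CPM with DMSO and at 0.212 and 0.0610 with ACBI1 (log2 change -5.04, SE 0.57, edgeR adjusted p 0.00546), and at -6.23 without ACBI1 replicate 1. LINC02561 was at 4.99 and 5.80 CPM with DMSO and at 0.190 and 0.137 with ACBI1 (log2 change -5.01, SE 0.39, adjusted p 0.00231). In both genes the groups lay far apart, and replicates were closer with DMSO than with ACBI1 on the log scale. LINC01605 had 3.33 and 2.68 CPM with DMSO against 0.201 and 0.107 with ACBI1 (log2 change -4.24, adjusted p 0.00485), and LINC00683 had 1.93 and 3.36 against 0.156 and 0.122 (log2 change -4.22, adjusted p 0.00571).

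LINC01686 was at 1.49 and 2.38 CPM with DMSO and at 0.246 and 0.122 with ACBI1 (log2 change -3.35, edgeR adjusted p 0.0116), or -3.96 without ACBI1 replicate 1. LINC02605 was at 3.86 and 2.84 CPM with DMSO and at 0.804 and 0.442 with ACBI1 (log2 change -2.41, adjusted p 0.0178). Of the 20 falls, the 10 largest passed whichever library was left out, as did LINC01426. The other 10 falling LINC genes, LINC03015 and LINC01426 among them, had log2 changes from -2.19 to -0.81 with adjusted p from 0.0116 to 0.0453. LINC00623, LINC00863 and LINC00899 were not called when any 1 library was left out, LINC02977 passed only without DMSO replicate 1, and LINC02813, LINC01588, LINC00888 and LINC01239 were lost in some of these fits. These 8 genes, LINC01426 and LINC03015 were named after their values were seen. In GENCODE release 29, exons of other genes cover 12.8% of LINC00623, so its counts are uncertain.

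The 8 LINC genes that rose changed by less. LINC01600 was at 0.172 and 0.222 CPM with DMSO and at 1.93 and 1.74 with ACBI1, or 30 counts against 287, a log2 change of 3.21 (SE 0.40, edgeR adjusted p 0.00687). It was the one rise among LINC genes that passed whichever library was left out. LINC00265 was at 2.82 and 1.89 CPM with DMSO and at 6.99 and 6.91 with ACBI1 (log2 change 1.56, adjusted p 0.0250), and it passed without DMSO replicate 1 only among those 4 fits.

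LINC00665 had the most reads of the 8, at 15.7 and 15.4 CPM with DMSO and 26.5 and 35.2 with ACBI1 (log2 change 0.99, SE 0.20, edgeR adjusted p 0.0254), and it was not called without ACBI1 replicate 2. LINC02985 was at 5.42 and 4.96 CPM with DMSO and at 11.6 and 11.2 with ACBI1 (log2 change 1.13, adjusted p 0.0251). The remaining rises were LINC01776 at 1.63, LINC02916 at 1.61, LINC02918 at 1.54 and LINC03077 at 1.42 (adjusted p 0.0411, 0.0346, 0.0463 and 0.0442). LINC03077 was not called when any 1 library was left out. LINC01776 passed only without DMSO replicate 2, LINC02918 and LINC02985 only without DMSO replicate 1, and LINC02916 not without DMSO replicate 2 or ACBI1 replicate 1. Groups did not overlap in any of the 35 called genes. They did not overlap in 62.6% of the 190 genes either, against 63.2% of all genes tested and 66.5% of those at 1 CPM or more.

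**Figure D3:**
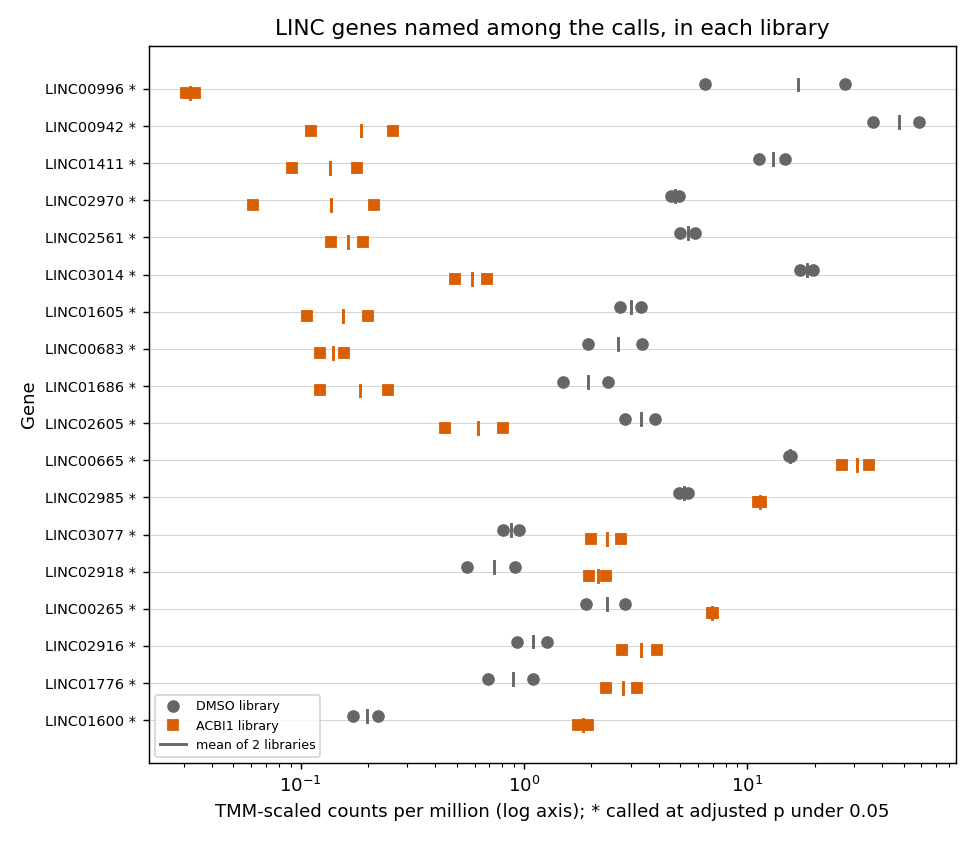
CPM of the 18 named LINC genes that were called, in the 2 DMSO and 2 ACBI1 libraries, 1 point per library on a log axis with a bar at the mean of each group. LINC00996 and LINC00942 show the widest drop, and in LINC00996 the DMSO libraries at 6.45 and 27.4 CPM lie apart.

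The LINC genes with the most reads did not pass the test. LINC00824 alone held 21.4% and 18.3% of the counts of the 190 genes with DMSO and 25.4% and 26.2% with ACBI1. It was at 396 and 337 CPM with DMSO and at 471 and 439 with ACBI1 (log2 change 0.31, adjusted p 0.268), so the groups stood apart without reaching the threshold. LINC02864 was at 71.3 and 69.5 CPM with DMSO and at 76.2 and 70.3 with ACBI1 (log2 change 0.06, adjusted p 0.824). LINC00963 had a log2 change of 0.28, LINC02693 of -0.47 and LINC00662 of 0.48 (adjusted p 0.396, 0.226 and 0.224).

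The 136 LINC genes not called ranged from -1.85 to 1.88 on the log2 scale, and 27 of them had an unadjusted edgeR p under 0.05. With called genes included, such a p was found for 55 of 164 LINC genes. It was found for 6490 of all 19159 genes tested and for 5182 of the 13801 at 1 CPM or more. The count is thus no finding particular to LINC genes. LINC00461, which holds the miR-9-2 hairpin, was at 0.933 and 0.987 CPM with DMSO and at 1.36 and 0.793 with ACBI1 (log2 change 0.17, adjusted p 0.807). The DMSO values lay inside the range of the ACBI1 values.

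The coding genes lying nearest were described next. Of 19 nearest coding genes within 100 kb of a falling gene, 9 were called lower (47.4%) and 1 higher, with a median log2 change of -1.22. Beside 8 rising genes, 2 neighbours were called higher and 0 lower. Beside genes not called, 15 of 94 neighbours were lower and 8 higher (8.51%). These shares are given with no test. Some neighbours count more than once: FAM20C lies beside both LINC03014 and LINC03015, and SAMD11, called higher and named after its values were seen, lies beside 3 genes not called. With each neighbour counted once, 8 of 18 were lower and 1 higher beside falling genes, and 15 of 90 lower and 6 higher beside genes not called.

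Several pairs lie close together. GIMAP8, a GTPase gene of the lymphocyte GIMAP family, 2.49 kb from LINC00996, had a mean of 2.66 CPM with DMSO and 0.00763 with ACBI1 (edgeR adjusted p 0.00581). FAM20C, a kinase of secreted proteins, fell by 1.66 on the log2 scale (adjusted p 0.00929). RGS16, a regulator of G-protein signalling 10.8 kb from LINC01686, was at -1.85 (adjusted p 0.00611). ZNF703, a zinc finger gene 95.9 kb from LINC01605, was at -2.71 (adjusted p 0.0320), but at -1.62 without DMSO replicate 2 and not called without ACBI1 replicate 1.

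In one pair the directions were opposite: IL7, the cytokine gene 32.1 kb from LINC02605, rose while LINC02605 fell (log2 change 1.34, adjusted p 0.0398). IL7 was called without DMSO replicate 2 but lost without any other library. WNT7B, a WNT ligand gene 62.7 kb from LINC00899, was at -5.37 (adjusted p 0.00265). This pair was chosen after its values were seen. LINC00899 itself fell from 1.93 and 1.74 to 0.782 and 0.564 CPM (log2 change -1.44, adjusted p 0.0453), and it was not called when any 1 library was left out. BCL7A, a SWI/SNF subunit gene 1.25 kb from the rising LINC02985, rose with a log2 change of 0.71 (adjusted p 0.0407), lost without DMSO replicate 2 or either ACBI1 library. MSX2, a homeobox gene 197 kb from LINC01411 and so beyond the distance counted, had a log2 change of -2.07 (adjusted p 0.00754).

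For falling hosts, the neighbours did not pass: RASSF7 beside MIR210HG had a log2 change of -0.81 and PTTG1 beside MIR3142HG one of -0.11 (adjusted p 0.254 and 0.712).

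**Figure D4:**
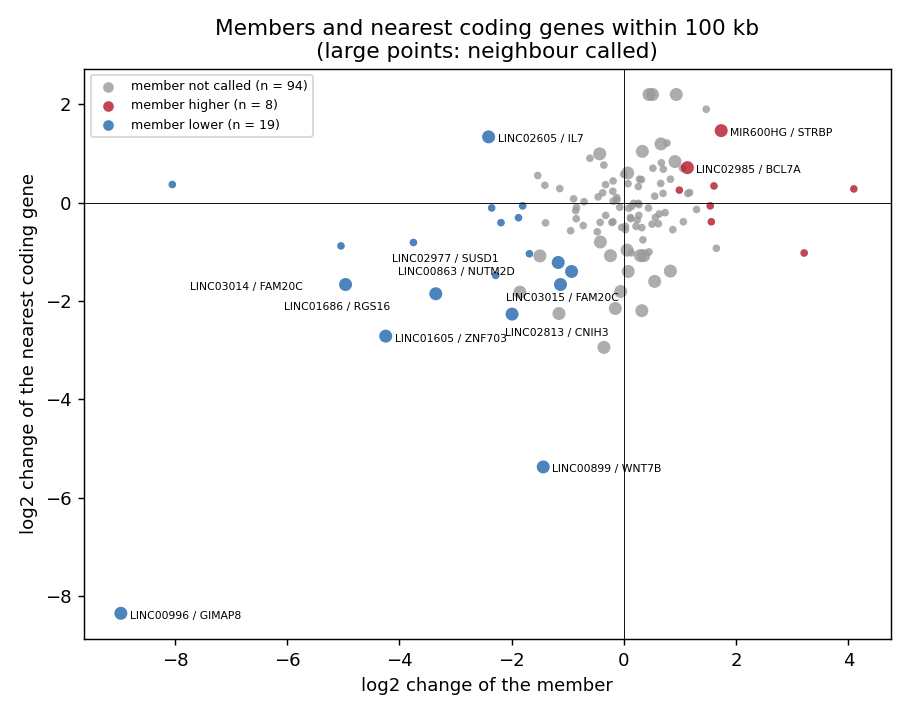
Log2 change of the nearest coding gene within 100 kb (vertical) against that of the LINC or host gene (horizontal), both as ACBI1 minus DMSO, 1 point per pair, coloured by the call of the LINC or host gene and large where the neighbour was called. GIMAP8 with LINC00996 lies at the lower left, IL7 with LINC02605 on the opposite side of 0, and most pairs gather near 0 on both axes.

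Long noncoding RNAs under other symbols give a frame. Of 16 tested from a list of known ones, 1 rose (6.25%, against 6.75% of all genes tested) and 2 fell (12.5%, against 10.6%). The median log2 change was -0.15. LUCAT1, a stress-induced RNA, was at 74.0 and 59.4 CPM with DMSO and at 20.7 and 11.6 with ACBI1 (log2 change -2.04, edgeR adjusted p 0.0104), and HOTAIRM1 of the HOXA cluster was at -1.99 (adjusted p 0.0299). The imprinted H19, host of miR-675, rose on few reads, 7 counts against 50 (log2 change 2.85, adjusted p 0.0407). HOTAIRM1 was not called without DMSO replicate 1 or either ACBI1 library, and H19 not without DMSO replicate 2 or either ACBI1 library, with 3.52 for H19 without DMSO replicate 1. The abundant nuclear RNAs MALAT1 and NEAT1 were at 0.20 and -0.28 (adjusted p 0.621 and 0.610). Of the hosts with a hyphen in the symbol, outside the rule, MIR4435-2HG and MIR9-1HG could be tested, with log2 changes of 0.23 and 0.57, and neither passed. LINC-PINT was at 28.6 and 18.7 CPM with DMSO and at 71.1 and 29.5 with ACBI1 (log2 change 1.09, adjusted p 0.134).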

How the data were processed

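RNA-seq counts were analysed for 4 H1792 libraries. Counts were deposited by the authors as whole numbers per gene symbol, not normalized, with 5 summary lines for reads not assigned to a gene (no feature: 5.07% to 6.24% of reads listed), which were left out. TopHat2 2.1.1, HTSeq 0.11.0 and the build hg38 are named in the submitters' processing notes; the annotation release and strand setting are not given in the sources used here. Genes were filtered with filterByExpr (minimum count 10, minimum total 15), scaled by TMM and tested with edgeR 4.0.16 (R 4.3.3) on treatment alone, two-sided, with Benjamini-Hochberg adjustment over 19159 genes. The SE is the log2 change over the square root of F. A single value compared between 2 and 2 libraries cannot reach an exact permutation p below 0.333. Intervals and floors cover counting error only. The genes and lists were chosen with earlier results of these data known. Named were every host, the 10 LINC genes with the largest called changes each way, the 5 with the highest level, those next to the 1 CPM limit, at most 4 called genes per list, and nearest coding genes. Symbols matched RefSeq GRCh38.p14 positions for 187 genes and GENCODE 29 exons for 188. Exons of other genes cover over 10% of the exon length in 40 genes, 1 of them called (LINC00623). RefSeq promoters were found for 134. Alternatives were other scalings, filters and thresholds, a replicate block, DESeq2 1.42.0, limma-voom 3.58.1, a 50 kb distance and each library left out. Scripts were tested on simulated data.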

Additional observations from a re-analysis of the deposited data

How the results depend on the processing

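The 35 calls and directions were all kept under DESeq2 size factors, upper-quartile scaling, both other filters, DESeq2 and limma-voom; library size only kept 33, losing LINC00863 and LINC00899, and shifted the median of all genes to 0.10. Against 11 higher and 24 lower, 19 and 37 were called with every gene with a count. There were 2 and 10 at adjusted p under 0.01, and 6 and 10 at 1 CPM or more in each group. DESeq2 called 19 higher, kept the 35 calls and added 18 in all, so more were lower as well. At 2 CPM or more, 7 were higher, and the count of lower genes is not given here. With each library left out, 4 to 14 were higher and 15 to 28 lower. The labels do not say that replicate numbers mark a batch. With the number as a block, 32 were higher and 46 lower, with the 35 calls kept and 43 added. The share of all genes called is not given for the block or for the other filters and tools. The counts of these fits are thus no finding about the 190 genes or the lists. The added hosts included MIR100HG, MIRLET7IHG and MIR4500HG (edgeR adjusted p 0.000581, 0.00585 and 0.0323). MIR17HG, MIR1915HG, MIR193BHG and MIR155HG were added as well (adjusted p 0.000377, 0.00317, 0.00982 and 0.0146). So were the LINC genes LINC00662 and LINC02693 (adjusted p 0.00915 and 0.0242). Replicate differences of the groups correlated at r = 0.559 over genes and 0.484 over the 190. In the block fit, processing genes gave 9 higher and 2 lower and other long noncoding RNAs 3 and 5. Otherwise processing genes gave 1 higher with the 1 CPM filter, 1 lower with every gene or DESeq2, and 1 to 4 higher and 0 to 1 lower with a library left out. Other long noncoding RNAs gave 2 higher under 3 scalings, every gene and DESeq2, 4 lower with every gene, 1 lower with the 1 CPM filter, and 0 to 2 higher and 1 to 2 lower with a library left out; 1 hyphenated host was higher with every gene. Within 50 kb, 7 of 16 neighbours of falling genes were lower.

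Log2 changes that reversed all belonged to genes not called, and the cause was not tested. They were 0.0040 for MIR181A1HG and 0.024 for MIR4458HG under upper-quartile scaling, and 0.059, 0.079 and 0.044 for MIR181A1HG, MIR4458HG and MIR31HG under library size only. With each library left out in turn, log2 changes ran from -0.27 to 0.50 for LINC00461, -2.44 to 0.039 for MIR155HG, -0.12 to 0.072 for MIR181A1HG, -0.83 to 0.22 for MIR23AHG, -0.49 to 0.85 for MIR29B2CHG, -0.59 to 0.39 for MIR3171HG, -0.31 to 0.31 for MIR31HG, -0.059 to 0.70 for MIR3936HG, -0.15 to 0.12 for MIR4458HG, -0.10 to 0.45 for MALAT1, -0.91 to 0.16 for NEAT1 and -0.041 to 0.25 for PBRM1.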
